A study of Mus musculus with 16 samples.

Results

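The 10 genes described here code for the main glucose transporter of many fetal cells and for enzymes that carry glucose to lactate: Slc2a1, Hk1, Hk2, Pfkl, Pfkm, Pfkp, Aldoa, Pgk1, Eno3 and Ldha. They were chosen by symbol, with earlier results of these data known. All 10 were found among the 55228 gene symbols of the count table, and all 10 were among the 18254 genes that passed the filter on low counts. RNA had been sequenced from mesenchyme of the pelvic urethra and the bladder of mouse embryos of the CD-1 stock, taken on embryonic day 16.5, and 16 libraries were made. The 4 groups were urethra of males, urethra of females, bladder of males and bladder of females, with 4 libraries each. All embryos were wild type and untreated, and the stock is outbred. A library held the pooled tissue of the embryos of 1 sex from 1 litter, and the same 4 litters gave all 4 groups, so n counts pools of embryos and the tissues are paired by litter. The 8 libraries of a tissue thus come from 4 litters, with both sexes of each.

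Glycolysis splits a glucose molecule into a pair of pyruvate molecules in the cytosol and yields ATP without oxygen. Lactate dehydrogenase then reduces pyruvate to lactate and returns the oxidised cofactor that the route needs. Hexokinase and phosphofructokinase are the steps at which the route is mainly controlled, and most steps have several isozymes that differ between tissues. Smooth muscle, which forms thick layers in the bladder wall, is known to make much of its ATP by glycolysis even when oxygen is present.

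Library totals ran between 24447435 and 29698009 counts in urethra and between 18577097 and 22293812 counts in bladder, so depth and tissue went together. The tissues differed widely: 75% of all tested genes passed the edgeR quasi-likelihood test (Benjamini-Hochberg adjusted p under 0.05) for urethra against bladder, 36.5% being higher and 38.5% lower in urethra. Smooth muscle markers summed to between 2017 and 2662 CPM (counts relative to TMM-scaled library totals) in urethra and between 17130 and 22140 CPM in bladder, and 12 of 12 were lower in urethra. Epithelial markers summed to 651.8 to 2286 CPM in urethra and to 1942 to 4892 CPM in bladder, and 10 of 14 were lower in urethra, so transcripts of epithelium were present in libraries labelled mesenchyme. Red blood cells lack mitochondria once mature and live on glycolysis, and their markers summed to 1203 to 1662 CPM in urethra and to 1468 to 2602 CPM in bladder, with 5 of 9 lower. Neuron markers were higher in urethra for 10 of 10, at 1420 to 2356 CPM in urethra against 40.5 to 390.6 CPM in bladder, and endothelial markers for 6 of 6. Skeletal muscle markers were higher in urethra for 13 of 16, with sums of 200.0 to 333.1 CPM in urethra and 223.9 to 256.9 CPM in bladder. These near sums hide a difference in most of the markers. Their mean log2 CPM ran from 2.67 to 3.43 in urethra libraries and from −0.27 to 0.21 in bladder libraries. No marker of these 6 lists was at 0 in every library of a tissue.

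The glycolysis genes were lower in urethra than in bladder. Of the 10 genes, 9 fell and 0 rose in urethra, where 38.5% of all tested genes fell. Their median log2 difference, urethra minus bladder, was −0.56, against −0.03 over all tested genes. All 10 genes together took 0.234 to 0.254% of the counts of urethra libraries and 0.327 to 0.365% of those of bladder libraries. The 6 genes Eno3, Pfkp, Aldoa, Ldha, Pfkl and Pgk1 did not overlap between the 8 libraries of each tissue, and all 6 were lower in urethra. Of all tested genes, 20.3% were lower in urethra without overlap. In bulk tissue, fewer cells of a type and less RNA per cell cannot be told apart. All smooth muscle markers and most of the epithelial and red blood cell markers were lower in urethra, as these genes were, and their part in the differences was not tested. Among epithelial markers Krt14, a keratin of basal cells, was higher in urethra (log2 1.78, adjusted p = 4.73e-05), and Epcam, Krt5 and Trp63 were not called. The other 4 red blood cell markers were not called.

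**Figure D1:**
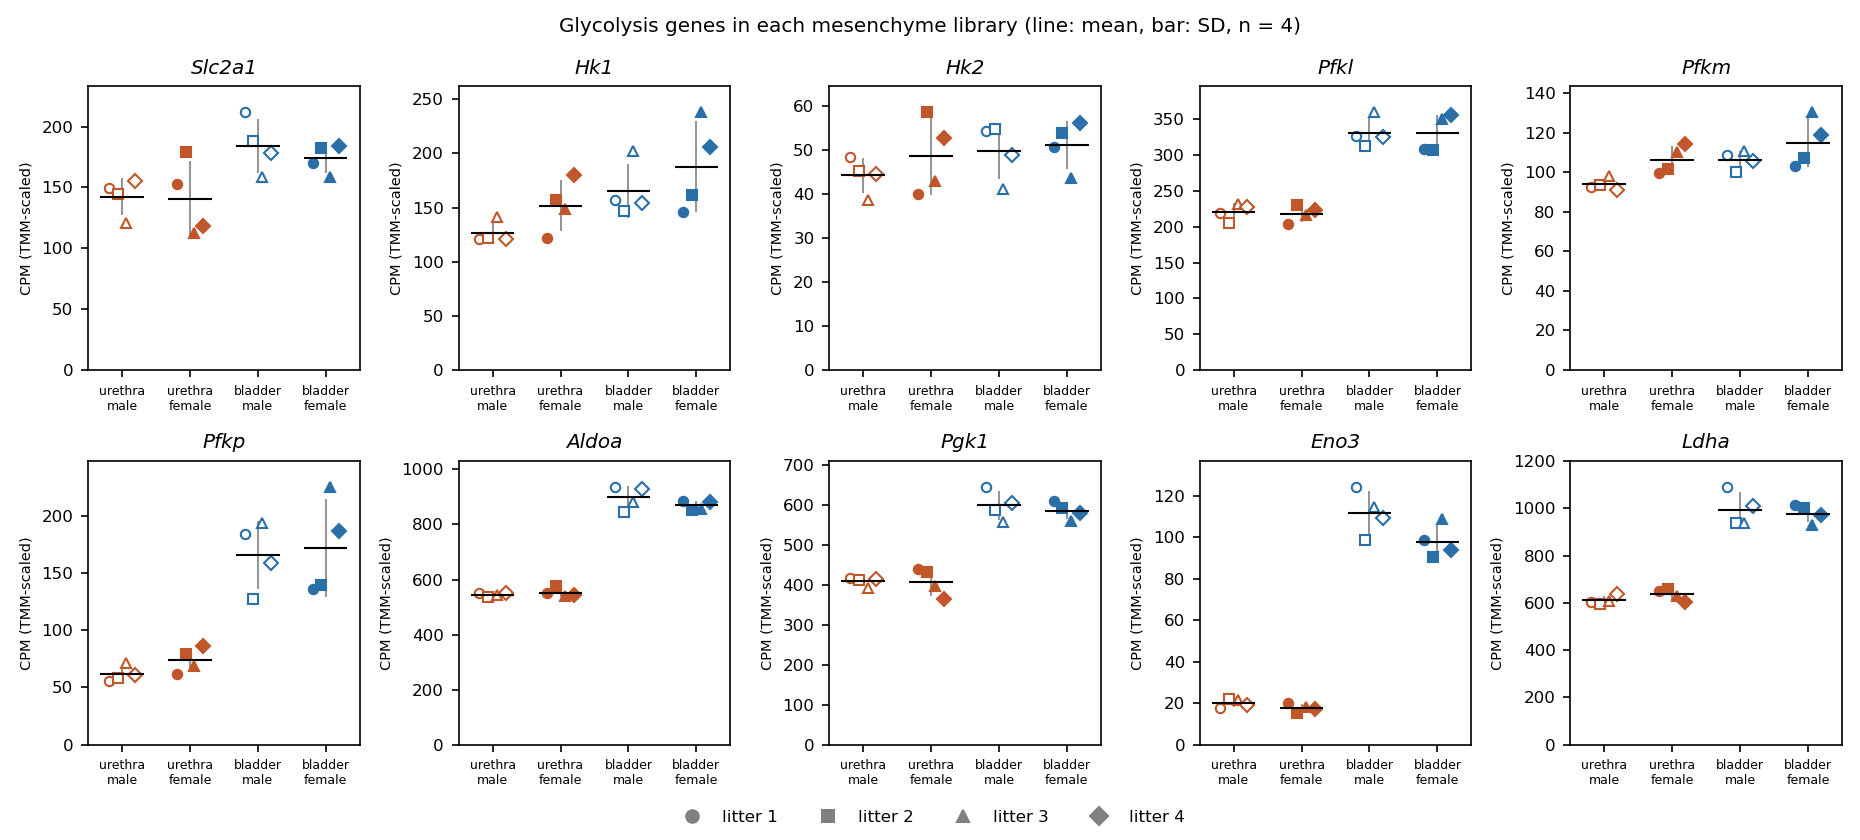
CPM of each of the 10 genes in each library, with urethra in orange and bladder in blue, open symbols for males and filled symbols for females, and 1 symbol shape per litter. Lines are group means and bars SD (n = 4). Eno3 stands at 15.2 to 22.2 CPM in urethra and at 90.3 to 124.5 CPM in bladder, while Hk2 overlaps between the tissues.

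Slc2a1 (GRCm38 chr4:119108711-119137983, plus strand) codes for GLUT1, the transporter that takes up glucose without insulin. It lay at 112.6, 147.0 and 178.8 CPM (lowest, median and highest of 8 libraries) in urethra, against 158.6, 180.0 and 212.1 CPM in bladder. The tissues overlapped, but each urethra library was below the bladder library of the same litter and sex, in 8 of 8 pairs. The mean was 141.5 ± 22.6 CPM in urethra and 179.0 ± 17.4 CPM in bladder (SD, n = 8 each), a log2 difference of −0.34 ± 0.09 (SE, edgeR adjusted p = 0.00313). This call was lost when libraries were scaled by their totals in place of TMM (log2 −0.20, adjusted p = 0.054).

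Hexokinase traps glucose in the cell as glucose 6-phosphate. Hk1 (chr10:62268855-62379908, minus strand), the form found in most tissues, lay at 120.7, 131.8 and 180.0 CPM in urethra, against 145.6, 159.3 and 238.4 CPM in bladder. The ranges overlapped, with the urethra library lower in 8 of 8 pairs. The log2 difference was −0.35 ± 0.10 (adjusted p = 0.00668), and it was not called with library totals (log2 −0.21, adjusted p = 0.0685) or without the filter on low counts (log2 −0.28, adjusted p = 0.0844). Hk2 (chr6:82725025-82774454, minus strand), the inducible form typical of muscle, lay at 38.7, 44.8 and 58.6 CPM in urethra, against 41.0, 52.2 and 56.1 CPM in bladder. It was the member that did not pass the test: its log2 difference was −0.12 ± 0.09 (95% interval −0.31 to 0.06, adjusted p = 0.203), lower in 7 of 8 pairs. With each pool of a litter and sex as a block, the paired fit called Hk2 lower in urethra (log2 −0.13, adjusted p = 0.0316).

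Phosphofructokinase makes fructose 1,6-bisphosphate, the first step that commits a sugar to glycolysis, and its subunits come from 3 genes named for liver (Pfkl), muscle (Pfkm) and platelet (Pfkp). The 3 subunit genes differed between the tissues by unequal amounts. Pfkp (chr13:6579768-6648777, minus strand) lay at 55.2, 65.3 and 86.0 CPM in urethra, against 127.1, 171.3 and 225.4 CPM in bladder. The tissues did not overlap, and Pfkp was 2.50-fold lower in urethra (log2 −1.32 ± 0.12, adjusted p = 4.66e-08). Pfkl (chr10:77986947-78010083, minus strand) lay at 203.5, 221.1 and 232.3 CPM in urethra, against 307.5, 326.0 and 360.3 CPM in bladder. It was 1.51-fold lower in urethra without overlap (log2 −0.59 ± 0.05, adjusted p = 4.41e-09).

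Pfkm (chr15:98092589-98132451, plus strand) lay at 91.2, 98.9 and 114.5 CPM in urethra, against 100.1, 107.8 and 130.5 CPM in bladder. The ranges overlapped widely, with the urethra library lower in 8 of 8 pairs, and the log2 difference was −0.15 ± 0.05 (adjusted p = 0.0125). Its direction held in 24 of 24 other settings and its call in 17. The call was lost with library totals (log2 −0.01, adjusted p = 0.856), without the filter on low counts (log2 −0.08, adjusted p = 0.295), without litter 3 (log2 −0.10, adjusted p = 0.0851), and without bladder library 3 or 4 of females or 1 or 3 of males (adjusted p of 0.132, 0.0968, 0.0827 and 0.105). The annotation looked up here for positions may differ from the release used for counting, which is not known. It places 341 exon bases of Pfkm, 10.2% of the total, inside exons of Gm26513 on the same strand. If the counting release held both genes so, reads there were not counted for either.

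Below phosphofructokinase, all 4 of the genes studied were lower in urethra in every pair and without overlap between the tissues, which held for 20.3% of all tested genes by overlap alone. Aldoa (chr7:126795234-126809108, minus strand), the main aldolase of muscle and of most embryonic tissues, lay at 535.9, 546.7 and 575.0 CPM in urethra, against 846.4, 883.2 and 937.9 CPM in bladder. That is 1.61-fold lower in urethra (log2 −0.69 ± 0.03, adjusted p = 7.29e-12), with an SD of 12.2 CPM over the 8 urethra libraries and 33.8 CPM over the 8 bladder libraries. Pgk1 (chrX:106187100-106203699, plus strand) codes for the phosphoglycerate kinase that makes ATP in the later steps of the route. It lay at 363.9, 414.5 and 439.1 CPM in urethra, against 558.5, 591.0 and 646.7 CPM in bladder, and was 1.45-fold lower in urethra (log2 −0.54 ± 0.04, adjusted p = 8.16e-09). The Aldoa row of the count table covers 2 gene IDs in the annotation looked up for positions, and its start and end match neither alone. Both genes have near copies in the genome, and reads that map to several places were not counted, so their levels are less certain than their differences between libraries. The retrogene Pgk1-rs7 had 2.37 CPM in urethra and 3.63 CPM in bladder.

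Eno3 codes for the beta subunit of enolase, the form of striated muscle, and had the largest difference of the 10 genes. It lies at chr11:70657202-70662513 on the plus strand. Its values were 17.6, 22.2, 21.5 and 19.2 CPM in litters 1 to 4 of male urethra and 20.2, 15.2, 18.1 and 17.4 CPM in female urethra, against 124.5, 98.6, 114.4 and 109.2 CPM in male bladder and 98.7, 90.3, 108.9 and 93.7 CPM in female bladder. The highest urethra library was far below the lowest bladder library. Eno3 averaged 18.9 ± 2.31 CPM in urethra and 104.8 ± 11.5 CPM in bladder (SD, n = 8 each), 5.53-fold lower in urethra (log2 −2.47 ± 0.07, adjusted p = 3.72e-14). Ranked by its log2 difference, it was number 327 of 18254 tested genes from the most negative.

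Ldha (chr7:46841475-46855627, plus strand) codes for the A subunit of lactate dehydrogenase, which favours lactate formation. It lay at 594.3, 618.1 and 658.1 CPM in urethra, against 928.0, 985.2 and 1092 CPM in bladder. The tissues did not overlap, and Ldha was 1.58-fold lower in urethra (log2 −0.66 ± 0.04, adjusted p = 1.55e-10). Levels were also taken per kilobase of merged exons. Merged exons can be longer than the transcript present, so the order of genes by this measure is only approximate. By it, Ldha, Pgk1 and Aldoa stood highest of the 10 in both tissues. They had 188.4, 182.4 and 147.9 CPM per kb in urethra and 297.8, 264.3 and 238.3 CPM per kb in bladder. In urethra, Ldha and Pgk1 differed by less than the spread over libraries (SD 7.22 and 10.7 CPM per kb). In urethra, Slc2a1 (40.4 ± 6.45 CPM per kb), Pfkl (32.9 ± 1.61), Pfkm (30.0 ± 2.51), Hk1 (16.3 ± 2.56), Eno3 (10.9 ± 1.33), Hk2 (7.76 ± 1.11) and Pfkp (5.05 ± 0.81) followed in that order. In bladder, the order was Eno3 (60.3 ± 6.60 CPM per kb), Slc2a1 (51.1 ± 4.97), Pfkl (49.6 ± 3.21), Pfkm (33.1 ± 2.92), Hk1 (20.7 ± 4.03), Pfkp (12.6 ± 2.54) and Hk2 (8.44 ± 0.93). Slc2a1 and Pfkl, and Pfkl and Pfkm, in urethra differed by less than the summed SD of both genes, as did Eno3 and Slc2a1, and Slc2a1 and Pfkl, in bladder. By this measure, Eno3 was the eighth of the 10 in urethra and shared the fourth place with Slc2a1 in bladder within that spread. Pfkp stood below Hk2 in urethra and above it in bladder. Without length, Pfkp stood above Hk2 in both tissues, at 67.7 against 46.3 CPM in urethra and 168.7 against 50.4 CPM in bladder. Eno3 was then the lowest of the 10 in urethra, at 18.9 CPM, and above only Hk2 in bladder, at 104.8 CPM.

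**Figure D2:**
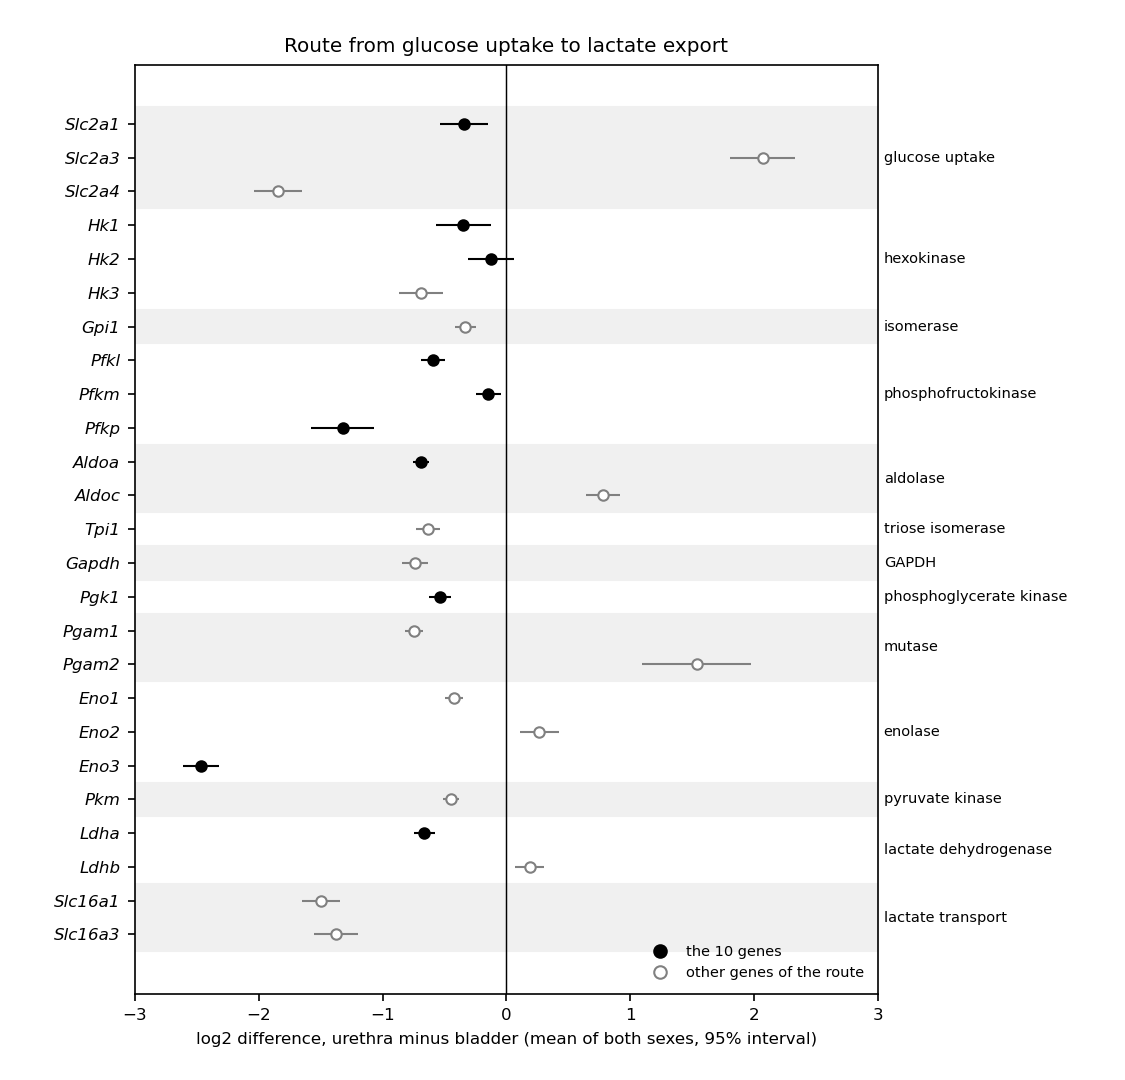
Log2 difference of urethra minus bladder (mean of both sexes) with its 95% interval, for the 10 genes (filled) and other genes of the route (open), ordered from glucose uptake to lactate transport. Eno3 lies at −2.47 and Slc2a3 at 2.07, and the shared steps Gpi1, Tpi1, Gapdh, Pgam1 and Pkm all lie left of 0.

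Because 9 of the 10 genes moved the same way, their promoters were searched for short letter runs known from factors of glycolysis. ACGTG and GCGTG are the letters shared by sites of hypoxia-inducible factors, and CACGTG is the E-box of MYC and USF proteins, which holds ACGTG on both strands. Both strands were searched, from 250 bases before to 50 bases after the start, in RefSeq promoters of GRCm38.p6. The 10 genes matched 17 promoters, of which 14 held ACGTG or GCGTG and 2 held CACGTG, and every gene had at least 1 promoter with ACGTG or GCGTG. Of all 32851 promoters, 43.8% held ACGTG or GCGTG, 19.6% ACGTG, 32.4% GCGTG and 7.15% CACGTG. These shares are by promoter, and no share by gene was taken to set beside the count of genes. Some windows of Aldoa and of Pfkm overlap and share a match, so the same site can count more than once. Such a match is a description of letters and does not show a bound site. The 250 bases before the start are printed for both genes with the largest differences, Eno3 and Pfkp, and for both genes with the highest levels per length, Ldha and Pgk1, in the direction of the gene with the matched letters of either strand in capitals (CACGT and CACGC are the matches on the opposite strand).
Eno3, chr11:70656926-70657175, plus strand: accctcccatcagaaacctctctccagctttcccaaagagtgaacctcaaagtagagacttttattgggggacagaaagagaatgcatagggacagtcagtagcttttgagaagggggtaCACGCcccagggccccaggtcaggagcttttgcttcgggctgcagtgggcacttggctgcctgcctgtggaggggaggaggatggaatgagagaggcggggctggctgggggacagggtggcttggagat
Pfkp, chr13:6648772-6649021, minus strand: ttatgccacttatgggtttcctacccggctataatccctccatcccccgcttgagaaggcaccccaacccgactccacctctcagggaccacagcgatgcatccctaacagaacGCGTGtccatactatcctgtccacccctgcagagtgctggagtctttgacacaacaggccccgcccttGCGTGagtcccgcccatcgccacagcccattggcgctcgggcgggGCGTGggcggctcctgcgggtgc
Ldha, chr7:46845554-46845803, plus strand: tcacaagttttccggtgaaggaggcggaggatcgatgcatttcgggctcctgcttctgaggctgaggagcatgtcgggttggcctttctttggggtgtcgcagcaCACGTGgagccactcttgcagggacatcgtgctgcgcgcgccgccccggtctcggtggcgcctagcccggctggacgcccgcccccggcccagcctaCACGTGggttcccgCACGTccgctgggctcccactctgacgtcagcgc
Pgk1, chrX:106186850-106187099, plus strand: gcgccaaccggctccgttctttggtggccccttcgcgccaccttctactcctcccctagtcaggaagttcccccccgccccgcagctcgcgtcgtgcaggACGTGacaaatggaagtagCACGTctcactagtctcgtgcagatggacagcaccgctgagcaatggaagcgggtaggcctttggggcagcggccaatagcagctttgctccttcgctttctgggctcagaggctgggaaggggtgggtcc
The Eno3 window held a single GCGTG, on the opposite strand, beginning 130 bases before the start. The Pfkp window held 3 GCGTG in the printed bases, 1 more after the start, and no ACGTG. The printed Ldha window held 2 E-boxes, the most of the 17, and 5 ACGTG in the printed bases, 4 of them inside the E-boxes, with 2 GCGTG after the start. A further Ldha promoter (chr7:46846832-46847131) is not printed, and it held 2 GCGTG but neither ACGTG nor an E-box. The Pgk1 window held 2 ACGTG, 1 on each strand.

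Shares within isozyme families showed which transcripts made up each family. A share is the CPM per kb of a gene over the sum of its family, and no scaling of libraries changes it. The shares are given as descriptions, with no test. In the enolase family, Eno3 made up 11.3 ± 1.38% in urethra and 35.6 ± 1.71% in bladder (SD, n = 8 each), with ranges of 9.06 to 13.4% in urethra and 33.3 to 38.3% in bladder. Eno1, the form of most tissues, made up 77.2 ± 1.41% in urethra and 58.9 ± 1.91% in bladder. Eno2, the form of neurons, made up 11.5 ± 1.32% in urethra and 5.48 ± 0.70% in bladder. The family summed to 94.6 to 99.4 CPM per kb in urethra libraries (mean 96.2, n = 8) and to 155.9 to 186.9 CPM per kb in bladder libraries (mean 168.8, n = 8), so the bladder libraries held both more enolase transcript and a larger part of it as the muscle form. Eno1 has a near copy, Eno1b, whose shared reads were not counted, so the level of Eno1 is uncertain. Eno1b had 41.4 ± 1.02 CPM per kb in urethra and 55.1 ± 2.62 CPM per kb in bladder, and with it in the sum, a choice made after seeing the data, Eno3 made up 7.92 ± 1.02% in urethra and 26.8 ± 1.44% in bladder.

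By CPM per kb, phosphofructokinase transcript was mostly of the liver and muscle forms in both tissues. This order rests on the length used, with merged exons of 13401 bases in Pfkp and 3340 in Pfkm. Without length, Pfkp stood above Pfkm in bladder, with means of 168.7 and 110.6 CPM. In urethra it stood below, with 67.7 and 100.1 CPM. Pfkl took 48.5 ± 2.31% in urethra and 52.1 ± 1.76% in bladder, and Pfkm took 44.1 ± 2.01% in urethra and 34.8 ± 1.16% in bladder. The direction of the Pfkl share rests on length too. From mean CPM without length, where Pfkl had 219.7 CPM in urethra and 330.9 CPM in bladder, its share was the larger in urethra. Pfkp took 7.40 ± 0.79% in urethra and 13.1 ± 1.59% in bladder. The muscle form of phosphofructokinase therefore held a larger share in urethra, while the muscle form of enolase held a larger share in bladder. Ldha made up 62.4 ± 1.97% of Ldha and Ldhb together in urethra and 75.0 ± 1.73% in bladder, without overlap between libraries of the tissues (59.7 to 65.5% in urethra, 72.8 to 77.4% in bladder). Aldoa made up 94.8 ± 0.40% of the aldolases in urethra and 98.1 ± 0.19% in bladder, with Aldoc as nearly all of the rest.

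In the upper steps, the shares of Hk1, Hk2 and Slc2a1 overlapped between the tissues, while those of Slc2a3 and Slc2a4 differed. Hk1 made up 64.8 ± 3.09% of the summed Hk1, Hk2, Hk3 and Hkdc1 in urethra and 67.1 ± 5.36% in bladder, and Hk2 31.0 ± 2.95% in urethra and 28.0 ± 4.87% in bladder, with overlap between the tissues for both. Slc2a1 made up 67.5 ± 4.91% of 3 transporter genes in urethra and 65.1 ± 4.74% in bladder, again with overlap. The rest of the transporter sum differed in kind. Slc2a3, the high-affinity transporter of neurons, took 20.9 ± 3.72% in urethra and 3.74 ± 0.77% in bladder, and Slc2a4, the insulin-regulated transporter of muscle and fat, took 11.6 ± 2.23% in urethra and 31.2 ± 4.29% in bladder. The neuron markers that were higher in urethra moved together with Slc2a3 and Eno2, and their part in these values was not tested.

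**Figure D3:**
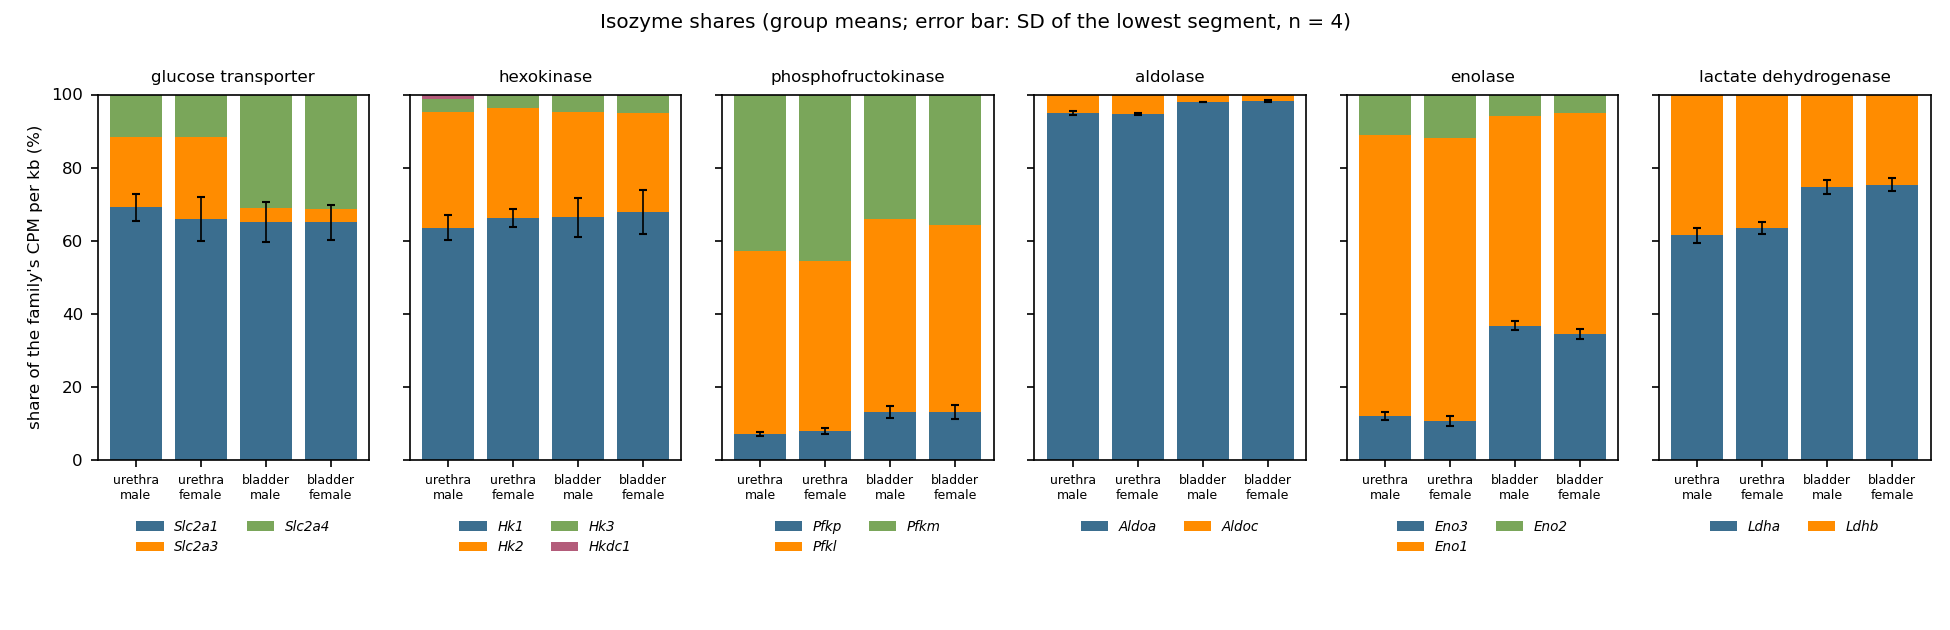
Share of each isozyme in the summed CPM per kb of its family, as means of the 4 libraries of a group. The error bar is the SD of the lowest segment. Eno3 is the lowest segment of the enolase bars, at 11.3% on average in urethra and 35.6% in bladder.

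The same direction held in both sexes. In males, 9 of the 10 genes were lower in urethra than in bladder and 0 higher, where 64% of all tested genes were called, 31.4% higher and 32.6% lower. In females 7 of the 10 were lower and 0 higher, where 65.7% of all tested genes were called, 32.6% higher and 33.1% lower. The log2 difference of Eno3 was −2.47 ± 0.10 in males and −2.46 ± 0.10 in females, that of Pfkp −1.43 ± 0.17 in males and −1.22 ± 0.17 in females, and that of Aldoa −0.72 ± 0.04 in males and −0.65 ± 0.04 in females. Hk2 was not called in either sex. Hk1 was called in males (log2 −0.39 ± 0.15, adjusted p = 0.0305) and not in females (−0.31 ± 0.15, adjusted p = 0.078), and Pfkm likewise in males (−0.18 ± 0.07, adjusted p = 0.0309) and not in females (−0.11 ± 0.07, adjusted p = 0.164). With the litter as a replicate block, Hk1 was called in females (log2 −0.29, adjusted p = 0.0318), and with litter and sex as the block also Hk2 in males (log2 −0.17, adjusted p = 0.0467). The difference between the sexes was itself tested as an interaction and called for 0 of 10 genes by edgeR (0.668% of all tested genes were called, 0.537% with a positive and 0.131% with a negative sign). No member had an unadjusted p under 0.05 for it, and DESeq2 also called 0 of 10. The calls of Hk1 and Pfkm in males and of Slc2a1 in females (adjusted p = 0.0478) were lost in 10, 15 and 19 of 24 other settings.

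No difference between males and females of 1 tissue passed the test in these genes. For male against female, 0 of 10 genes were called in urethra, where 6.39% of all tested genes were called (3.97% higher and 2.42% lower in males). In bladder 0 of 10 were called, where 0.581% of all tested genes were called (0.247% higher and 0.334% lower in males). DESeq2 also called 0 of 10 in both. Pfkm in urethra was the only 1 of these 20 comparisons with an unadjusted p under 0.05. It stood at 92.8, 93.4, 98.0 and 91.2 CPM in litters 1 to 4 of male urethra, against 99.7, 101.4, 110.1 and 114.5 CPM in female urethra. The sexes did not overlap, as for 13.4% of all tested genes, but the difference failed the correction (log2 −0.18 ± 0.07, edgeR unadjusted p = 0.0174, adjusted p = 0.146). It was −0.10 (adjusted p = 0.723) without the pair of female urethra libraries that were lowest in epithelial genes. The 95% intervals of the male minus female differences ran from −0.11 to 0.07 for Aldoa and from −0.62 to 0.09 for Pfkp in urethra, so the Pfkp interval did not exclude a level in males lower by 0.62 on the log2 scale. In bladder, Eno3 was higher in males of 4 of 4 litters, with a mean of 111.7 CPM (SD 10.8, n = 4) over males against 97.9 CPM (SD 8.06, n = 4) over females. Its log2 difference there was 0.19 ± 0.09 (95% interval −0.01 to 0.38, adjusted p = 0.42).

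The members also varied between litters, in ways that differed from gene to gene. These deviations are a pattern noticed in the data and are given without a test. In litter 3, Hk1, Pfkp and Pfkm were each the highest of the 4 litters in 3 of 4 groups, with mean log2 deviations from the group mean of 0.21, 0.20 and 0.09. In the same litter, Slc2a1 was the lowest in 4 of 4 groups and Hk2 and Pgk1 in 3 of 4, with mean deviations of −0.22, −0.21 and −0.06. Both hexokinases thus deviated in opposite directions in libraries of the same pools, in 3 of 4 groups. Pgk1 was the highest in litter 1 in all 4 groups. Aldoa kept closest to its group means, with log2 deviations between −0.09 and 0.06.

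The balance of long and short genes also varied between libraries. The median deviation of long tested genes (merged exons of at least 6240.75 bases) minus that of short ones (at most 2193 bases) was 0.09 in male urethra, 0.03 in female urethra, 0.17 in male bladder and 0.23 in female bladder of litter 3, positive in all 4. It was negative in all 4 libraries of litter 1 (−0.24 to −0.04) and of litter 2 (−0.15 to −0.02), and ran between −0.07 and 0.23 in litter 4, where female urethra stood level with female bladder of litter 3. Merged exons span 13401 bases in Pfkp and 8532 in Hk1, against 2244 in Pgk1. Pfkm, high in litter 3, has 3340 bases and Slc2a1, low in litter 3, has 3506 bases. Hk2, also low, has 5969 bases. Of 20 genes of the response to low oxygen, 13, 7, 14 and 2 lay below their group means in litters 1 to 4. In litter 3 the lowest were Ankrd37 (−0.40), Ddit4 (−0.35) and Adm (−0.30), while Epas1 (0.23), Hif3a (0.12) and Pdk1 (0.11) lay above. The part of gene length and of oxygen response in the litter values was not tested. Without litter 3, 8 of the 10 genes were called lower in urethra.

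**Figure D4:**
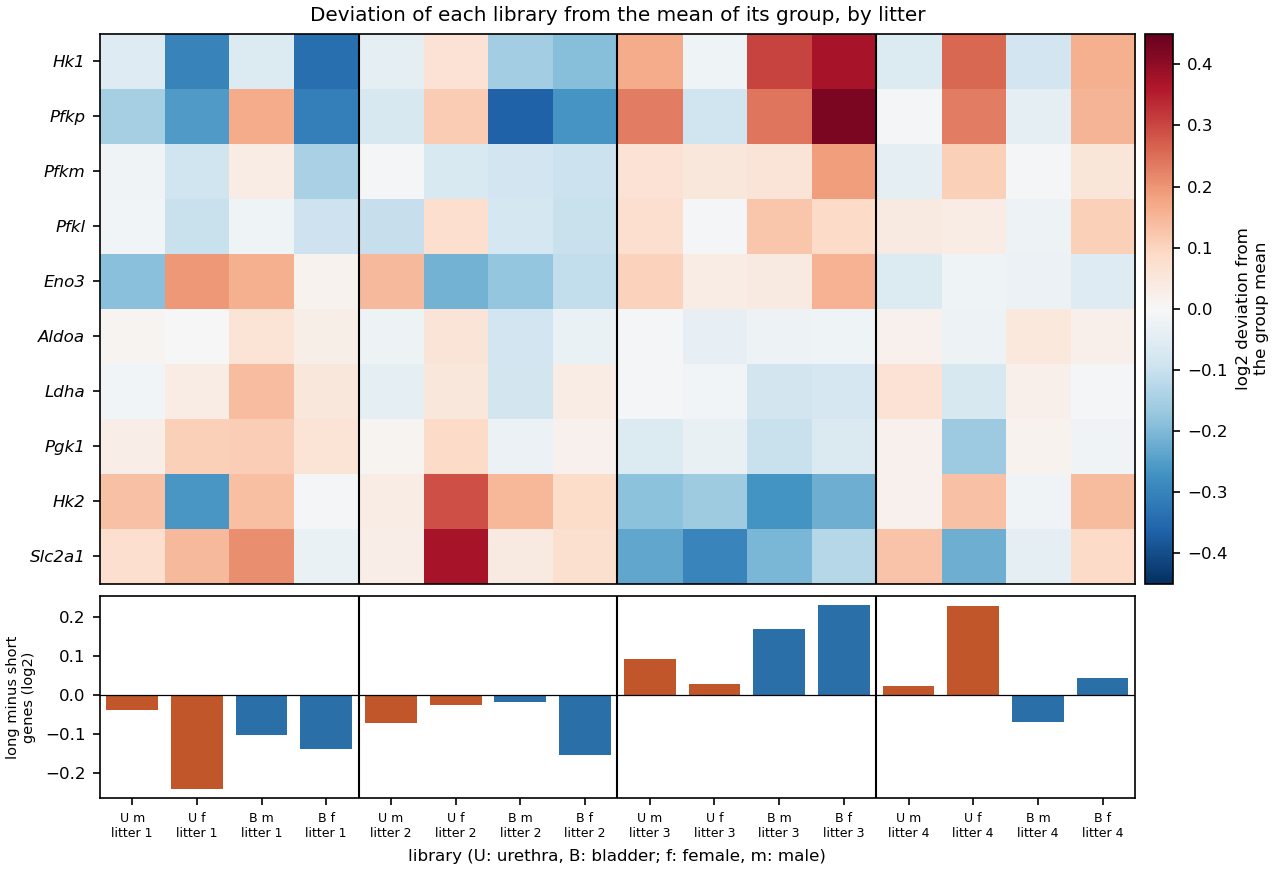
Upper panel: log2 deviation of each of the 10 genes in each library from the mean of its group, with libraries ordered by litter. Lower panel: median deviation of long minus short genes in the same libraries (orange urethra, blue bladder). In litter 3, Hk1 and Pfkp are red in 3 of 4 libraries, Slc2a1 and Hk2 are blue in 4 of 4, and all 4 bars of the lower panel are above 0.

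For both genes with the largest tissue difference, the genes with the most similar pattern were looked up as those with the smallest root mean square difference of centred log2 CPM over the 16 libraries, among tested genes with a mean log2 CPM of at least 2. For Eno3 these were Pcp4l1 (0.134), Acta2 (0.152), the smooth muscle actin, and Cavin3 (0.159), a protein of caveolae. Their log2 differences of urethra minus bladder were −2.52 ± 0.07, −2.55 ± 0.06 and −2.32 ± 0.06. For Pfkp they were Mtcl1 (0.135), Tns1 (0.141), which codes for a protein of focal adhesions, and Esyt2 (0.154), with log2 differences of −1.16 ± 0.10, −1.31 ± 0.13 and −1.31 ± 0.08. Aldoa and Ldha were nearest to each other (0.045), which was seen after their values were known, as was Pfkfb3 as the nearest gene to Hk2 (0.092). Pgam1 (0.046) and Atp5b (0.048), the latter not a gene of the route, were about as near to Aldoa. Atp5b came next for Ldha too (0.053). The nearest genes of Pgk1, Pfkl, Hk1, Slc2a1 and Pfkm were Capza2, Pak2, Nin, Mblac1 and Sept9, none of them of the route. Pfkfb3 makes fructose 2,6-bisphosphate, the main activator of phosphofructokinase. It had 52.2 ± 5.63 CPM in urethra and 56.8 ± 4.24 CPM in bladder and, like Hk2, was not called (log2 −0.12 ± 0.06, adjusted p = 0.0664).

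Enzymes of the steps between the 10 genes were lower in urethra as well, while several other isozymes were higher. Of 26 further genes of the route, 22 were tested, and 9 were higher, 11 lower and 2 not called in urethra. Over all tested genes, 36.5% were higher and 38.5% lower. The median log2 difference of these further genes was −0.08. Pgam1, the phosphoglycerate mutase of most tissues, had 191.3 ± 9.29 CPM in urethra and 320.5 ± 8.42 CPM in bladder (log2 −0.74 ± 0.04). Gapdh (−0.74 ± 0.05), Tpi1 (−0.63 ± 0.05), Pkm (−0.45 ± 0.03), Eno1 (−0.42 ± 0.03) and Gpi1 (−0.33 ± 0.04) were lower in urethra too, and none of these 6 overlapped between the tissues. A lower level in urethra without overlap held for 20.3% of all tested genes. Gapdh had 50.2 CPM in urethra and 83.8 CPM in bladder; it has many near copies whose shared reads were not counted, so its level is uncertain. The lactate transporters Slc16a1 (−1.50 ± 0.07) and Slc16a3 (−1.38 ± 0.08) showed larger differences than Ldha. The largest difference downward was that of Slc2a4 (−1.85 ± 0.09), with 23.7 ± 2.33 CPM in urethra and 85.2 ± 13.2 CPM in bladder.

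The 9 further genes of the route that were higher in urethra were all members of families with several isozymes or transporters. So were most of those that were lower, such as Slc2a4, Hk3, Eno1 and Pkm. Slc2a3 rose by 2.07 ± 0.12, with 89.5 ± 15.8 CPM in urethra and 21.2 ± 4.35 CPM in bladder. Aldoc, the aldolase of brain, rose by 0.78 ± 0.07, Eno2 by 0.27 ± 0.07 and Ldhb, the lactate dehydrogenase subunit of heart, by 0.19 ± 0.06. Eno4 (1.55 ± 0.18) and Pgam2 (1.54 ± 0.21), the mutase of striated muscle, rose at low levels, with 1.29 CPM and 2.02 CPM in urethra against 0.438 CPM and 0.697 CPM in bladder. Hk3 was lower in urethra (−0.69 ± 0.08), while Hkdc1 was not called (0.18 ± 0.25, adjusted p = 0.535). Hkdc1 and Slc2a12 were the genes of this list called between the sexes: in urethra, Hkdc1 had 1.48 ± 0.139 CPM in males and 0.364 ± 0.160 CPM in females (log2 2.02 ± 0.32, adjusted p = 0.000839), and Slc2a12 had 11.2 to 12.8 CPM in the 4 male libraries and 8.18 to 8.58 CPM in the 4 female libraries (log2 0.52 ± 0.14, adjusted p = 0.0302). The levels of Hkdc1 are low, and in bladder it had 0.638 ± 0.163 CPM in males and 0.651 ± 0.378 CPM in females.

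Control of the route and the entry of pyruvate into mitochondria were mostly lower in urethra as well. Of 16 such genes, 12 fell, 1 rose and 3 were not called, with a median log2 difference of −0.31. Over all tested genes, 38.5% fell and 36.5% rose. Pyruvate dehydrogenase kinases, which hold pyruvate back from oxidation, were led by Pdk4 (−1.89 ± 0.11) and Pdk1 (−0.97 ± 0.07). Pfkfb1, a further maker of fructose 2,6-bisphosphate, fell by 1.11 ± 0.13 on the log2 scale. Tigar, which lowers fructose 2,6-bisphosphate, was the gene that rose (0.41 ± 0.08). Genes of pyruvate oxidation fell alongside the kinases that block it, among them the pyruvate carrier genes Mpc1 (−0.65 ± 0.05) and Mpc2 (−0.65 ± 0.05), named here after their values were seen.

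Glycogen is the store that muscle breaks down to feed glycolysis. It had 12 of 15 tested genes lower in urethra, 2 higher and 1 not called, with a median log2 difference of −0.71. Over all tested genes, 38.5% were lower and 36.5% higher. Pygm (−1.41 ± 0.09) and Pygl (−1.35 ± 0.07), the glycogen phosphorylases of muscle and liver, fell most, with 17.3 ± 1.81 and 32.7 ± 2.32 CPM in urethra and 45.8 ± 6.40 and 83.5 ± 9.31 CPM in bladder. Ppp1r3c, a glycogen-targeting subunit of protein phosphatase, fell by 1.09 ± 0.08. Phka2 (0.24 ± 0.06) and Gyg (0.23 ± 0.03), the primer of glycogen, rose.

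The list of 20 genes of the response to low oxygen shares Slc2a1 with the 10. In it, 13 fell in urethra, 3 rose and 4 were not called (median −0.38), where 38.5% of all tested genes fell and 36.5% rose. Car9 (−2.39 ± 0.16), Egln3 (−1.55 ± 0.09) and Higd1a (−1.30 ± 0.06) fell most. Car9 had 1.14 ± 0.145 CPM in urethra and 5.96 ± 1.57 CPM in bladder. The transcripts of the 3 oxygen-regulated factors themselves went different ways, although these factors are known to be set mainly by protein stability. Epas1 rose by 0.52 ± 0.14 and Hif1a by 0.18 ± 0.04, while Hif3a fell by 0.66 ± 0.10, with 120.4 ± 19.9 CPM in urethra and 188.9 ± 30.1 CPM in bladder. Kdm3a rose by 0.13 ± 0.04. Vegfa, Adm, Bnip3l and Ddit4, also targets of these factors, were not called, with log2 differences of 0.06, 0.05, 0.07 and 0.23. The genes of this list therefore did not all share the direction of the 10 glycolysis genes.

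**Figure D5:**
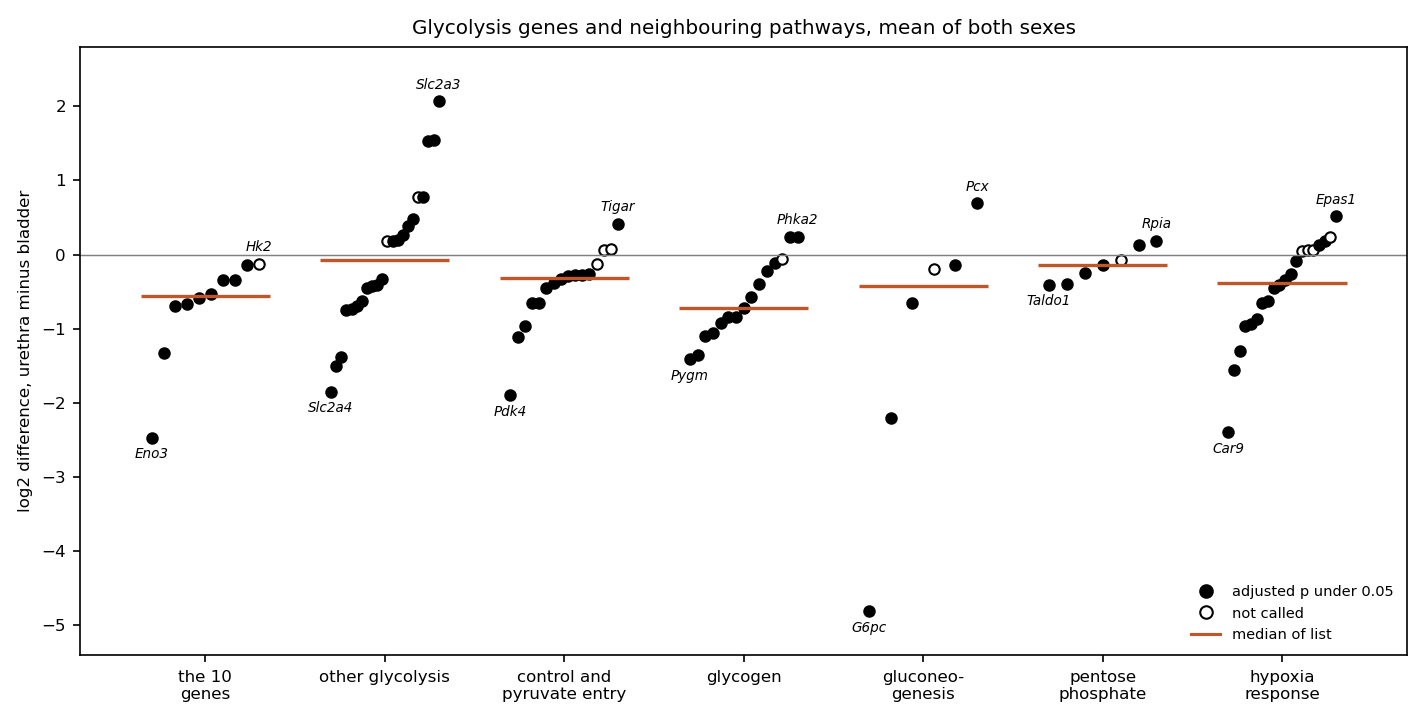
Log2 difference of urethra minus bladder for each tested gene of the 10 and of 6 neighbouring lists, with filled points past the test, open points not called, and a line at the median of each list. The medians are −0.56 for the 10 genes, −0.08 for the rest of the route, −0.31 for control, −0.71 for glycogen and −0.38 for the response to low oxygen.

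All directions are relative to the scaling of the libraries. With library totals in place of TMM, the median log2 difference over all tested genes was 0.11, against −0.03 with TMM, and 60.8% of the called genes were higher in urethra, against 48.7% with TMM (63.3 against 49.0% in males and 61.1 against 49.6% in females). Under library totals, 6 of the 10 genes were called lower and 0 higher, with a median of −0.43, and Hk2 stood at 0.01. Eno3, Pfkp, Aldoa, Ldha, Pfkl and Pgk1 were called lower in urethra in all 24 other settings tried, and Eno3 ranged between −2.50 and −2.33 over them.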

How the data were processed

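Per the submitters' processing notes, the authors demultiplexed reads with bcl2fastq, aligned them to GRCm38 with HISAT2 2.1.0, handled them with SAMtools and counted them with Subread 1.6.3. The deposited counts are whole read pairs assigned to gene symbols. Per the file headers, strand setting 2 was used without reads that map to several places or overlap several genes. A second deposited table holds signal, for which the authors scaled each library's counts by a DESeq2 size factor. It was used here only to check these factors (relative deviation at most 5.11e-15). The deposited table's other column used, of no sample, is the merged exon length in bases.

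The counts were analysed here with R 4.3.3 and edgeR 4.0.16 (limma 3.58.1) in a quasi-likelihood fit of 4 groups with TMM scaling, filterByExpr and robust estimates. The Benjamini-Hochberg adjustment covered all 18254 tested genes, with a threshold of 0.05. The standard error is the size of the log2 difference over the square root of F, an approximation. Log2 CPM used a prior count of 2. The contrast for both sexes is the mean of the difference in males and in females. DESeq2 1.42.0, other scalings, no filter, blocks and left-out libraries were alternatives. The scripts were tested on simulated data. Python 3.11.15, pandas 2.3.3 and matplotlib 3.10.9 were used for sequences and figures.

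Replicate numbers mark litters per the labels, whose descriptions name 1 litter for each number. Deviations from group means of both tissues of 1 litter and sex correlated at 0.0921 to 0.409 (median 0.194, 7 of 8 over 0.1), those of both sexes of 1 litter and tissue at −0.0475 to 0.265 (4 of 8 over 0.1) and those of 1 litter with both different at −0.0905 to 0.296 (4 of 8), against a median of −0.0514 for other litters. Libraries of 1 group were checked for copies, and over 24 pairs chi-squared per degree of freedom was 4.91 to 37.2.

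The members and lists were chosen with earlier results of these data known. Named were the 10 genes, their isozymes, per list up to 3 genes with the largest called tissue differences in each direction, and the nearest genes of Eno3 and Pfkp. Nearest genes of the other members were named after their values were seen. Some genes of these lists are not reported here and were left out of the list counts and isozyme sums.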

Additional observations from a re-analysis of the deposited data

Results flagged for a closer look

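Hk1 in male urethra stood at 141.38 CPM in litter 3, while the other litters of that group lay between 120.7 and 122.2 CPM. The gap took 0.929 of the range of the group, above Dixon's 95% critical value for 4 samples. It was the only 1 of 40 groups of 4 libraries checked that passed it, and chance passes about 1 in 20.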

How the results depend on the processing

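Of 1420 values of the 10 genes under 24 other settings, 1291 kept their direction and side of the threshold, 58 lost a call, 6 gained one and 65 changed sign without being called on either side. No called value turned round. The number of the 10 genes called ran from 6 to 10 for both sexes, 6 to 10 in males and 6 to 8 in females, and stayed at 0 for sex and interaction. Leaving out 1 library gave 8 to 9 for both sexes, 6 to 9 in males, 6 to 7 in females and 0 to 0 for the rest.

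A replicate block for litter gave 6887 higher and 7229 lower genes in urethra, and 9 of the 10 genes were called. With litter and sex as the block, 6920 were higher and 7296 lower, and all 10 genes were called (10 in males, 8 in females). Neither block lost a call of the 10 genes, and beside Hk2 and, in females, Hk1, the pairing gained none.

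Counts over all genes moved more for sex than for tissue. Leaving out 1 library gave 13351 to 13943 genes for both sexes (13683 with all), 10918 to 11998 in males, 11222 to 12157 in females, 674 to 1691 for male against female in urethra (1167), 40 to 174 in bladder (106) and 70 to 147 for the interaction (122). DESeq2 called 473 genes for sex in bladder and 274 for the interaction. Without both female urethra libraries lowest in epithelial genes, 370 were called for sex in urethra and 56 for the interaction. Without litter 3, chosen after seeing the data, these were 683 in urethra, 50 in bladder and 59. The causes were not tested. Counts of lists that moved by over 1.5 times were those of control genes higher in urethra (1), with 3 by library totals and 2 without the filter or female bladder library 1, and of low-oxygen genes higher (3), with 6 by library totals and 5 without female bladder library 1. Isozyme shares computed without length moved by over 1 SD for 28 values, and all 6 enolase shares did so with Eno1b added. Litters number 4, which limits the precision for sex.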

Other observations

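Gluconeogenesis, which runs the route backwards past its one-way steps, had 6 of 7 genes tested, of which 4 were lower in urethra, 1 higher and 1 not called (median log2 difference −0.43). Fbp2, the fructose bisphosphatase of muscle, had 1.99 ± 0.706 CPM in urethra and 9.14 ± 2.66 CPM in bladder (SD, n = 8 each), a log2 difference of −2.20 ± 0.22 (edgeR adjusted p = 1.34e-07). In litters 1 to 4 of female bladder, Fbp2 had 9.96, 9.38, 4.35 and 6.05 CPM. The epithelial marker Upk1a had 346.3, 361.5, 160.6 and 197.0 CPM in the same libraries, seen after the values were known. The part of epithelium in the Fbp2 difference was not tested. Pck2, the mitochondrial form of its enzyme, was lower by −0.66 ± 0.03 on the log2 scale. G6pc was called lower too, at 0 to 0.0699 CPM in urethra and 0.185 to 0.796 CPM in bladder, levels too low for a fold. Pcx, which makes oxaloacetate of pyruvate, rose by 0.69 ± 0.06. The pentose phosphate route, which branches off at glucose 6-phosphate, moved less: 4 of 7 genes fell, 2 rose and 1 was not called (median −0.14). For both routes, the shares over all tested genes were 38.5% falling and 36.5% rising. Taldo1 (−0.40 ± 0.08), Pgls (−0.39 ± 0.06) and G6pdx (−0.25 ± 0.05) fell, and Rpia (0.18 ± 0.05) and Tkt (0.13 ± 0.04) rose.

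Of 12 genes of transcription factors known to act on glycolysis genes, 6 rose in urethra, 3 fell and 3 were not called (median 0.13). Over all tested genes, 36.5% rose and 38.5% fell. Myc fell by 0.54 ± 0.05 on the log2 scale, with 40.6 ± 2.36 CPM in urethra and 59.1 ± 5.07 CPM in bladder, while Mycn rose by 1.93 ± 0.09, with 43.6 ± 9.57 CPM in urethra and 11.2 ± 1.97 CPM in bladder. Esrra fell (−1.06 ± 0.07) and its relative Esrrg rose (2.16 ± 0.12). Mef2c fell by 0.19 ± 0.06, and Mlxipl, a factor of the response to carbohydrate, rose by 1.71 ± 0.22. Mlxipl was at a very low level, with 0.917 ± 0.242 CPM in urethra and 0.280 ± 0.079 CPM in bladder. Esrrb, also among those that rose, was lower still, with 0.464 CPM in urethra and 0.232 CPM in bladder. The size of both rises is therefore uncertain. Mycn and Ppargc1a were also lower in males than in females in urethra (−0.58 ± 0.12 and −0.62 ± 0.16, adjusted p = 0.00745 and 0.0308).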
